A study of Rattus norvegicus with 3 samples.

Results

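*Ttr* and 9 further genes used as markers of the choroid plexus (*Folr1*, *Kl*, *Clic6*, *Otx2*, *Aqp1*, *Slc4a5*, *Prlr*, *Sostdc1* and *Calml4*) were followed across RNA libraries from the basolateral amygdala (BLA) of the rat. The genes were chosen by name with measured values of these libraries already known, so their read counts are given as a description and no test was made on them. Of the 10 genes, 7 matched a row of the table of 19113 genes, and *Folr1*, *Clic6* and *Otx2* are not analysed here. All 7 were among the 16775 protein-coding genes with a mean scaled count above 1.

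The libraries came from BLA micropunches of adult male Sprague-Dawley rats. SH rats were kept in standard housing, EE rats received environmental enrichment in a group cage with toys and shelters, and ER rats (enrichment removal) lost access to that cage after several weeks in it, as a model of loss. Each condition gave 1 library from the pooled RNA of 10 rats, with 30334384 (SH), 29263063 (EE) and 29558555 (ER) reads assigned to genes. Per the study's methods, SH rats of this cohort lived in pairs, ER rats lived singly after removal and EE rats were held singly by day, so company and enrichment cannot be told apart. The contrasts were EEvSH for the experience of enrichment, ERvSH for enrichment followed by removal, and ERvEE for removal. They share libraries in pairs, so each contrast is given by its own values.

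The choroid plexus is a folded epithelium in the brain ventricles that secretes cerebrospinal fluid and forms the barrier between blood and that fluid. Its epithelial cells are the main source of transthyretin (*Ttr*) in the brain. Transthyretin carries thyroxine, and it carries retinol when bound to the retinol-binding protein encoded by *Rbp4*. The BLA is a nucleus of neurons and glia away from the ventricle lining, and some of the other markers are also expressed by neurons, glia or vessels.

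A scaled count is the deposited value, reads divided by a size factor of the library, and 1 read was worth 0.996 (SH), 1.03 (EE) and 1.03 (ER). Ratios carry an exact 95% binomial (Clopper-Pearson) interval computed from the reads. The interval, and the floor of 3 reads used for a library without a read, cover counting error only and not the spread between rats or pools, since there is 1 library per condition. A gene passed the size rule when its ratio was at least 1.5-fold in either direction and the interval excluded 1. The words higher and lower are used here for genes that passed.

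*Ttr* was lower in both libraries with a history of enrichment. It had 80 reads in SH, 4 in EE and 0 in ER. The scaled counts were 79.7 in SH (exact 95% Poisson interval 63.2 to 99.2), 4.14 in EE (1.13 to 10.6) and 0 in ER, where the floor of 3 reads corresponds to 3.08. The counting interval of SH did not overlap that of EE, which describes a gene chosen with measured values of these libraries known. The EEvSH ratio was 0.0519 (0.0138 to 0.138), which is a 19.3-fold lower count in EE. In ERvSH, *Ttr* was at least 25.9-fold lower in ER, taking the floor of 3 reads for the ER library and the 80 reads of SH as counted. The step from EE to ER was not detectable at this depth, because 4 reads against 0 gave an interval that included 1. In a bulk library, fewer cells of a type and less RNA per cell cannot be told apart.

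**Figure D1:**
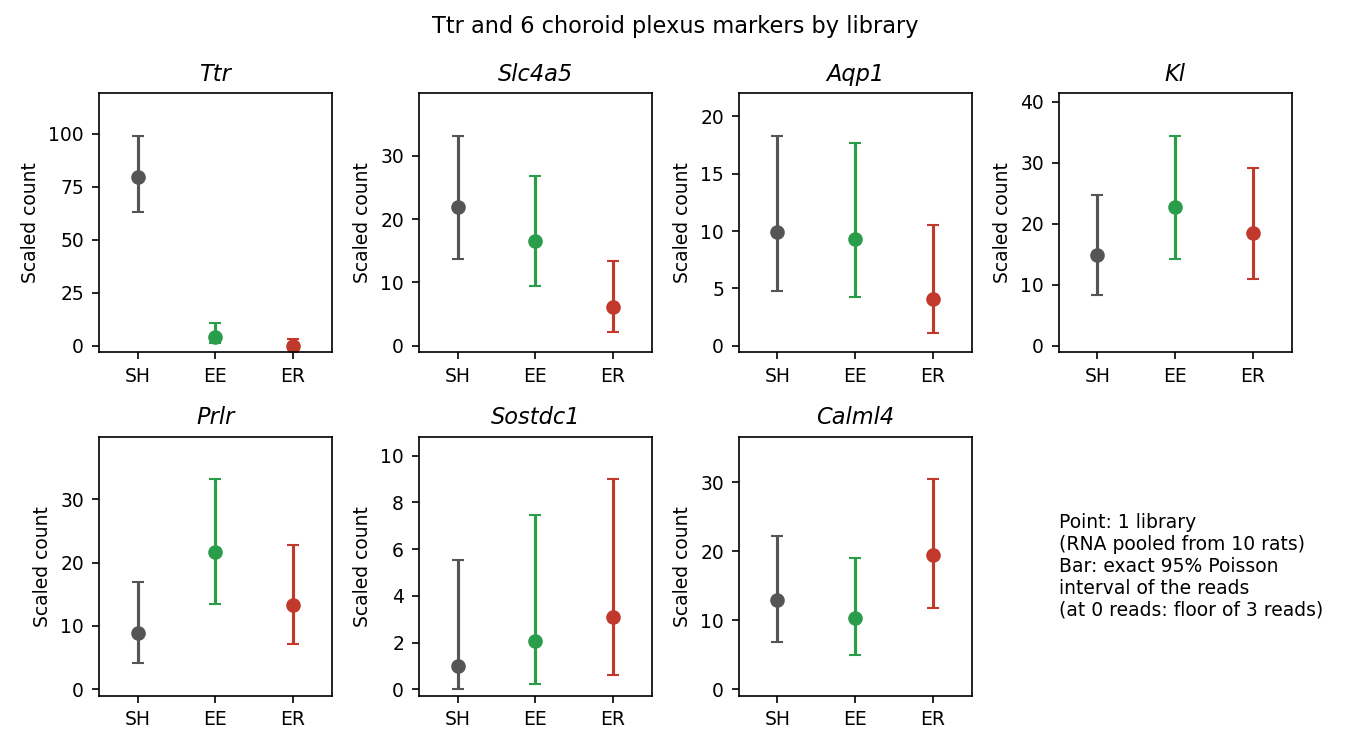
Scaled counts (reads divided by the library size factor, linear axes) of *Ttr* and the 6 other matched markers in the SH, EE and ER libraries, with 1 point per pooled library and bars for the exact 95% Poisson interval, or up to the floor of 3 reads at 0 reads. *Ttr* falls from 79.7 in SH to 4.14 in EE and 0 in ER, and *Slc4a5* and *Aqp1* also run from SH through EE to ER, over smaller differences. *Kl*, *Prlr*, *Sostdc1* and *Calml4* do not show that order.

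Among the transport genes, *Slc4a5* encodes the sodium bicarbonate cotransporter NBCe2 of the epithelium's ventricular face. It had 22 reads in SH, 16 in EE and 6 in ER, with scaled counts of 21.9, 16.5 and 6.15. ER held the fewest, and the count was lower in ERvSH at a ratio of 0.281 (0.0932 to 0.714). The EEvSH ratio was 0.755 (0.371 to 1.51) and the ERvEE ratio was 0.372 (0.119 to 1.00), and neither passed the rule. The upper end of the ERvEE interval lay at 1.001, so that this gene came close to passing. *Aqp1*, the water channel of the same membrane, had 10 reads in SH, 9 in EE and 4 in ER. Its ratios were 0.934 (0.336 to 2.56) in EEvSH, 0.412 (0.0943 to 1.43) in ERvSH and 0.441 (0.0992 to 1.58) in ERvEE, all with an interval that included 1. From 10 reads in SH, at most 2 reads in the other library would have passed as lower and at least 22 as higher.

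Promoter sequences are shown for *Ttr* and *Slc4a5* because both were lower in ERvSH. They are the 250 bases before the gene start in the RefSeq annotation of the build GRCr8, at chr18:12218508-12218757 for *Ttr* and chr4:117283044-117283293 for *Slc4a5*, both on the plus strand and written 5′ to 3′. Capitals mark CCAAT on either strand.
Ttr: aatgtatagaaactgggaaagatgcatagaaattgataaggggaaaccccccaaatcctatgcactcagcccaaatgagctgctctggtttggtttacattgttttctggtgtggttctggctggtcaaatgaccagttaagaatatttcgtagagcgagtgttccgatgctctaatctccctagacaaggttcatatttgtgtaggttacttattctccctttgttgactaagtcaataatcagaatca
Slc4a5: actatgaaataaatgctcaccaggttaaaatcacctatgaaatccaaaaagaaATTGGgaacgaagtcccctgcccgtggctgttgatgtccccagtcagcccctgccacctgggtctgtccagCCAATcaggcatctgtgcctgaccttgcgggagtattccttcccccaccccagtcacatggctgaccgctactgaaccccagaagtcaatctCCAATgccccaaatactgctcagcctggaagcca
The *Slc4a5* window held 3 matches to CCAAT, and the window of *Ttr* held 0. Promoters were found for 6 of the 7 matched genes, the other being *Sostdc1*. Motifs were searched on both strands over 33469 promoter windows of the same length, and none of those searched contains another. TAATCC, the core bound by homeobox proteins of the Otx family, was in 6.34% of all windows and in 0 of the 6. CCAAT was in 34.0% of all windows and in 1 of the 6 (*Slc4a5*), and TATAAA was in 12.9% and in 1 of the 6 (*Aqp1*). A match is a description of letters in the window and was not tested as a binding site. The windows rest on annotated starts that were not checked here, and bases after those starts were not searched. A window without a match therefore does not mean that the promoter lacks the motif.

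Of the receptor genes, *Prlr* (prolactin receptor) had 9 reads in SH, 21 in EE and 13 in ER. The scaled counts were 8.96, 21.7 and 13.3, with EE highest. It was higher in EEvSH at a ratio of 2.42 (1.06 to 6.01), opposite to *Ttr*. Its ratios of 1.49 (0.588 to 3.94) in ERvSH and 0.614 (0.283 to 1.29) in ERvEE did not pass. *Kl* encodes klotho, a co-receptor for the hormone FGF23 that is also shed into cerebrospinal fluid. It had 15 reads in SH, 22 in EE and 18 in ER, and the ratios of 1.52 (0.755 to 3.16), 1.24 (0.588 to 2.63) and 0.812 (0.410 to 1.59) for EEvSH, ERvSH and ERvEE had intervals that included 1.

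*Calml4*, a calmodulin-like protein gene, had 13 reads in SH, 10 in EE and 19 in ER. Its ratios were 0.799 (0.313 to 1.97) in EEvSH, 1.51 (0.705 to 3.32) in ERvSH and 1.89 (0.834 to 4.54) in ERvEE, and none passed. *Sostdc1*, a secreted antagonist of BMP and Wnt ligands, had 1, 2 and 3 reads in SH, EE and ER. With so few reads its intervals ran from 0.108 to 122.5 in EEvSH and from 0.248 to 162.2 in ERvSH, and 8 reads would have been needed to pass as higher.

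**Figure D2:**
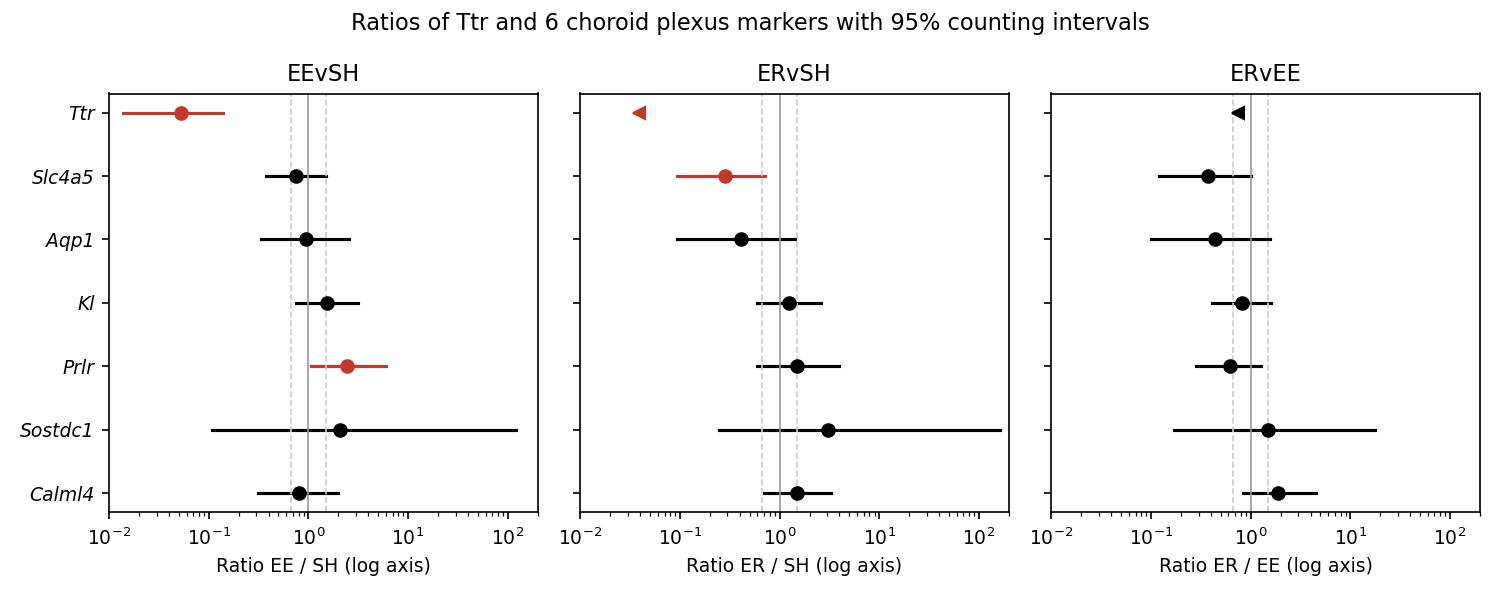
Ratio of scaled counts (log axis) of *Ttr* and the 6 other matched markers in each contrast, with points for the ratio and lines for the 95% counting interval. Red marks genes past the size rule, dashed lines mark 1.5-fold in each direction and triangles mark the ratio with ER set to the floor of 3 reads. *Ttr* and *Slc4a5* are red to the left in ERvSH, *Ttr* to the left and *Prlr* to the right in EEvSH, and no gene is red in ERvEE.

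Over the 7 genes, 1 was higher (*Prlr*) and 1 lower (*Ttr*) in EEvSH, 0 were higher and 2 lower (*Ttr* and *Slc4a5*) in ERvSH, and 0 were higher or lower in ERvEE. Over all 16775 genes, the rule called 1.19% as higher and 0.942% as lower in EEvSH. It called 0.817% as higher and 0.864% as lower in ERvSH. For ERvEE the shares were 0.775% as higher and 0.924% as lower. These shares are set beside the counts for scale only, as the genes were selected on the same libraries. The rule is passed more often by genes with few reads. Among the 2529 genes with a mean scaled count of 5 to 50, a range set after the values were seen, the shares called as higher and as lower were 4.35% and 3.60% for EEvSH, 3.01% and 2.97% for ERvSH, then 3.04% and 3.64% for ERvEE.

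The 6 other markers did not share the pattern of *Ttr* as a group. Their summed reads were 70 in SH, 80 in EE and 63 in ER, which gave ratios of 1.19 (0.850 to 1.66) in EEvSH, 0.927 (0.649 to 1.32) in ERvSH and 0.781 (0.553 to 1.10) in ERvEE. With *Ttr* the sums were 150, 84 and 63 reads, and the ratios were 0.581 (0.440 to 0.764), 0.433 (0.317 to 0.584) and 0.744 (0.528 to 1.04). *Ttr* made up 53.3% of the reads of the 7 genes in SH (Clopper-Pearson interval 45.0 to 61.5), 4.76% in EE (1.31 to 11.7) and 0 of 63 reads in ER, where the floor of 3 reads is a share of 4.76% and the upper end of the interval is 5.69%. The SH interval of this share lay above the intervals in EE and ER. The proportion of these genes in choroid plexus tissue was not measured here, and the source of the *Ttr* reads was not tested. The median log2 ratio of the 7 genes (pseudocount 1) was −0.09 in EEvSH, 0.29 in ERvSH and −0.66 in ERvEE, beside 0.00 over all genes in each contrast. The ERvEE median was −0.43 with *Ttr* in ER at the floor. In ERvSH the median lay above 0 although both genes past the rule were lower, since 4 of the 7 ratios were above 1.

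Other genes of the choroid plexus were counted from a list of 25, of which 21 were tested. In EEvSH 15 of the 21 ratios lay below 1, beside 49.2% of all genes, and 2 of the 21 were lower. *Cldn3*, a tight junction claudin, had 50 reads in SH, 19 in EE and 31 in ER (EEvSH ratio 0.395, 0.220 to 0.681). *Abca4*, a retinoid transporter, had 46, 24 and 39 reads (EEvSH ratio 0.542, 0.316 to 0.906). In ERvSH 18 of the 21 lay below 1, again beside 49.2% of all genes, and 1 gene was lower, *Kcnj13*, an inward rectifier potassium channel with 7 reads in SH, 3 in EE and 0 in ER. Its reads ran in the same order as those of *Ttr*, *Slc4a5* and *Aqp1*, and with 7 reads in SH the upper end of its ERvSH interval was 0.715. In ERvEE 12 lay below 1, beside 51.1% of all genes, and 0 passed. The medians on the log2 scale were −0.22, −0.20 and −0.10, with −0.01 in place of the last when genes at 0 were set to the floor. *Kcne2*, a potassium channel subunit of the same epithelium, had scaled counts of 53.8, 42.4 and 61.5 and passed in no contrast.

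The summed scaled count of these 21 genes was 4216 in SH, 3548 in EE and 3836 in ER, and *Car12*, a carbonic anhydrase, held 2198, 1765 and 2035 of it. In SH *Car12*, *Spint2* and *Slc29a4* had 2207, 828 and 588 reads, beside 80 for *Ttr*. The sum therefore rests on genes far above *Ttr*, and the cells that gave their reads were not tested. The 14 of the 21 with a mean below 50, a limit set after the values were seen, had 226 reads in SH, 161 in EE and 164 in ER. This gave ratios of 0.740 (0.600 to 0.909) in EEvSH and 0.747 (0.608 to 0.918) in ERvSH. SH was thus the highest library for *Ttr* and for this sum, and the sum differed between libraries by far less than *Ttr* did. In SH, EE and ER, *Cldn3* held 50, 19 and 31 reads of this sum and *Abca4* held 46, 24 and 39. The EEvSH ratio of the sum rests largely on *Cldn3* and *Abca4*, while others, such as *Trpv4* and *Msx1*, had more reads in EE than in SH. The part that choroid plexus tissue in the SH pool could have in the *Ttr* count was not tested. *Cldn2* is not analysed here.

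**Figure D3:**
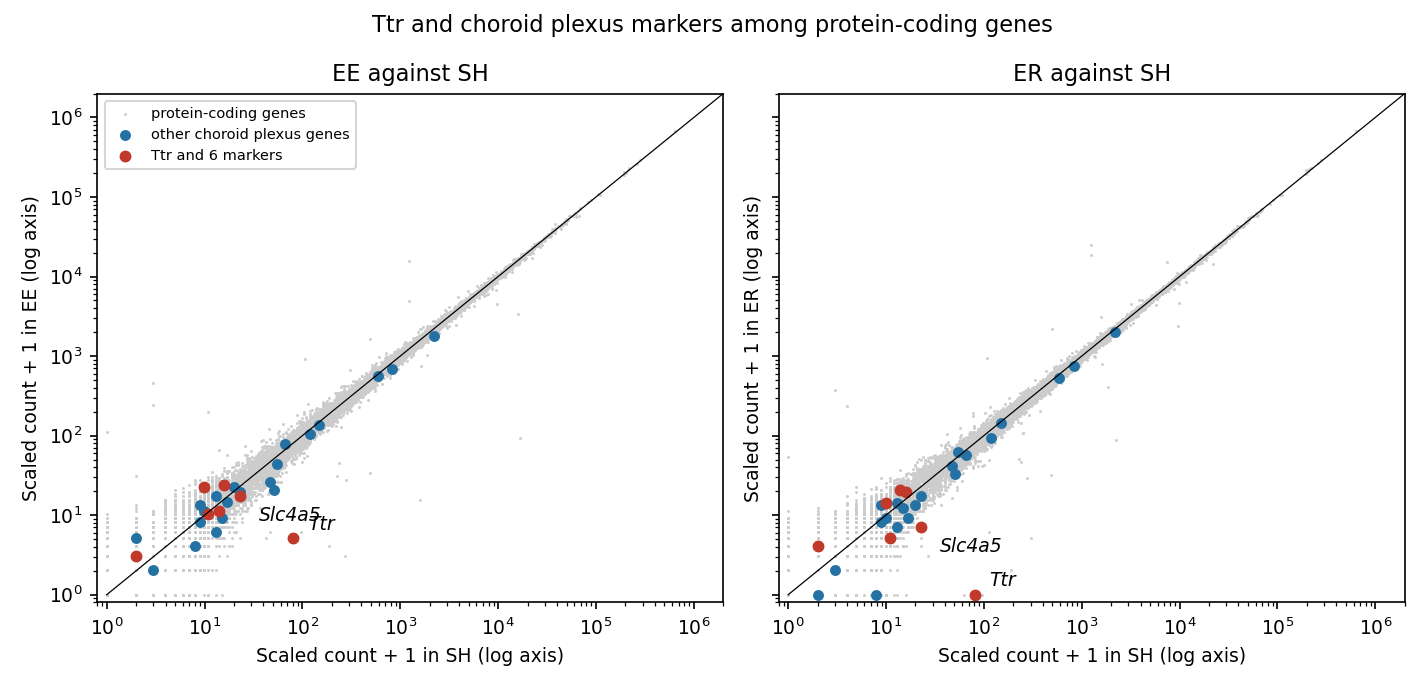
Scaled count + 1 in EE (left) or ER (right) against SH, both on log axes, for all 16775 protein-coding genes (grey), 21 other choroid plexus genes (blue) and *Ttr* with 6 markers (red); the line marks equal counts. *Ttr* lies far below the line in both panels at 79.7 in SH, while the other red and blue points lie nearer to the line.

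*Rbp4*, the partner of transthyretin in retinol transport, passed in no contrast. It had scaled counts of 591.5 in SH, 593.5 in EE and 580.6 in ER, with ratios of 1.00 (0.893 to 1.13) in EEvSH and 0.982 (0.873 to 1.10) in ERvSH. Of 17 retinoid genes, 0 passed in ERvSH or in ERvEE. In ERvEE 16 of the 17 ratios lay below 1, beside 51.1% of all genes, with a median log2 ratio of −0.09. The interval excluded 1 for 1 of the 17, *Cyp26b1*, a retinoic acid hydroxylase named here after its values were seen (0.931, 0.892 to 0.972). Of 10 thyroid hormone genes tested, which include the transporter *Slco1c1* and the receptors *Thra* and *Thrb*, 0 passed in any contrast. The EEvSH ratio of the hormone-binding protein gene *Crym* was 0.770 (0.734 to 0.807), an interval outside 1 with a ratio under 1.5-fold.

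The relatives of the other markers were also tested. *Slc4a4* and *Slc4a10*, sodium bicarbonate transporters like *Slc4a5*, had ERvSH ratios of 0.924 (0.862 to 0.990) and 1.03 (1.00 to 1.07). *Aqp4*, the water channel of astrocyte endfeet, had 0.991 (0.965 to 1.02). *Clic1*, *Clic4* and *Clic5*, members of the chloride intracellular channel family, had EEvSH ratios of 1.16 (0.938 to 1.44), 1.24 (1.07 to 1.43) and 1.01 (0.816 to 1.24). Of the 19 genes of ion and water transport tested, 0 passed in any contrast. *Ghr*, the growth hormone receptor and a relative of *Prlr*, had an EEvSH ratio of 0.875 (0.722 to 1.06), and 0 of 8 genes of prolactin receptor signalling passed.

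*Fgfr1*, which forms the FGF23 receptor with klotho, had an EEvSH ratio of 1.07 (0.997 to 1.15), and 0 of the 6 klotho and endocrine FGF genes tested passed. *Klb* is not analysed here. Folate carriers were set beside the unmatched *Folr1*. *Folr2*, a folate receptor of macrophages, had 11, 5 and 14 reads, and the EEvSH ratio of 0.472 (0.129 to 1.47) did not pass. *Slc46a1*, the proton-coupled folate transporter, had ratios of 0.879 (0.776 to 0.995) in EEvSH and 0.852 (0.751 to 0.965) in ERvSH, and *Slc19a1*, the reduced folate carrier, had 0.898 (0.750 to 1.08) and 0.895 (0.747 to 1.07). Of the 13 folate genes 0 passed. Of 20 BMP and Wnt genes beside *Sostdc1*, *Bmp2* was higher in EEvSH (1.56, 1.00 to 2.44, the lower end just above 1) and in ERvSH (2.09, 1.38 to 3.21), with 36, 54 and 73 reads.

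Cells that border the ventricle or the brain surface were followed by their own markers. Of 9 ependymal genes tested, *Dynlrb2*, a dynein light chain of cilia, was higher in EEvSH (2.64, 1.28 to 5.88) and in ERvSH (2.25, 1.06 to 5.08), with 11, 28 and 24 reads. SH was its lowest library, whereas it was the highest for *Ttr*. The summed scaled count of the 9 was 956.0 in SH, 1013 in EE and 958.1 in ER, and none was at 0 in a library. *Foxj1* is not analysed here. The 15 leptomeningeal genes summed to 1740, 1622 and 1686, and 0 passed. The 6 endothelial, 6 astrocyte and 8 amygdala projection neuron genes tested gave sums with ratios of 0.990 to 1.04 to SH, and 0 of them passed. The projection neuron gene *Slc17a7*, the vesicular glutamate transporter, had 57997 reads in SH, 55872 in EE and 56637 in ER. The part of these cell types in the values of *Ttr* and its companions was not tested.

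**Figure D4:**
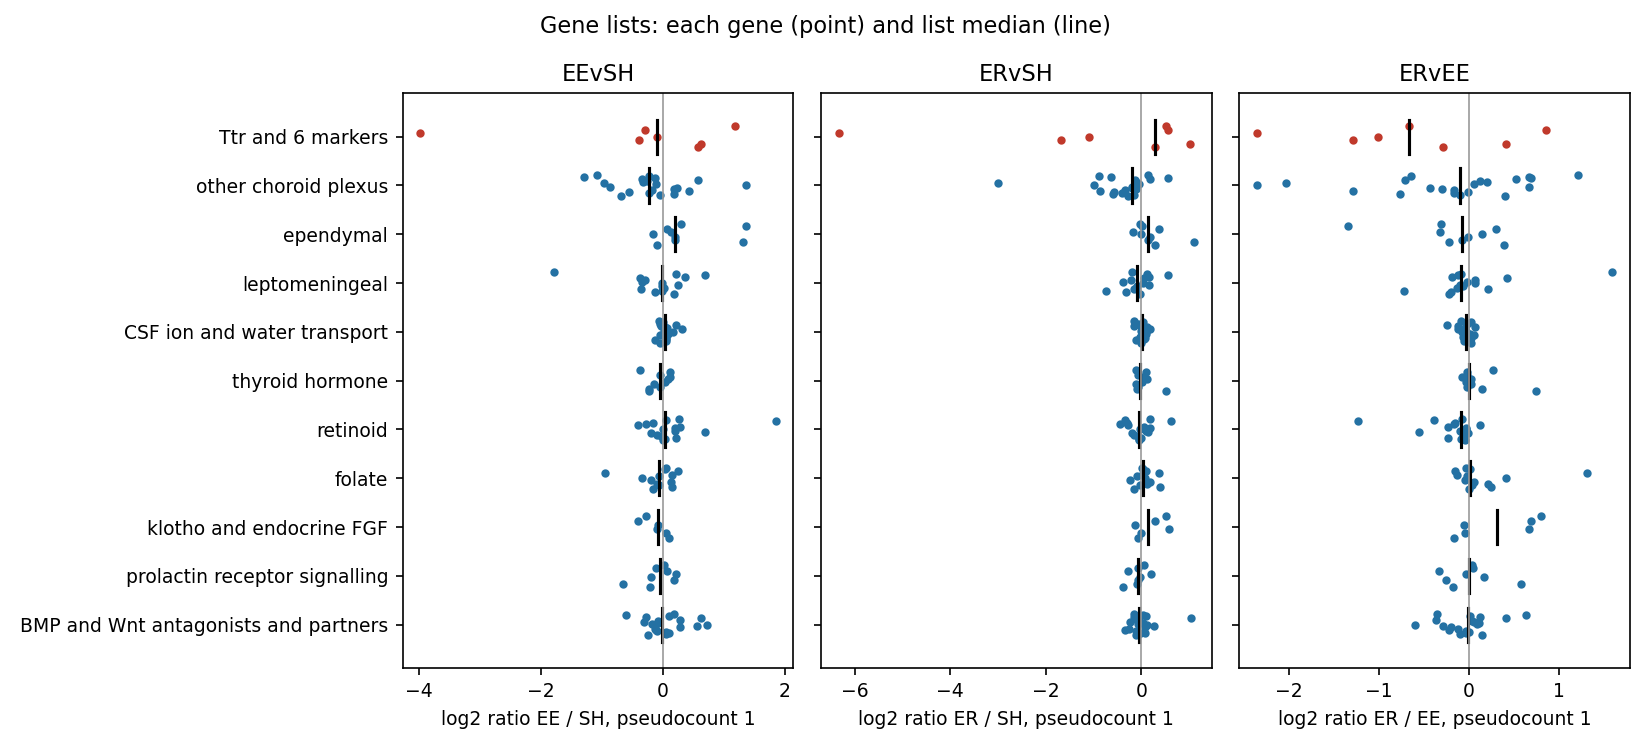
Log2 ratio of scaled counts (pseudocount 1) for each tested gene (points) of *Ttr* with 6 markers (red) and of 10 other lists (blue), with black lines for the list medians. In EEvSH and ERvSH *Ttr* is the leftmost red point, at −3.97 and −6.33, and the medians of the other lists lie between −0.22 and 0.20 in these contrasts.

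Set beside other genes as a description, *Ttr* lay at the low end of the ratios to SH. Of 13397 protein-coding genes with at least 50 reads in SH, 4 had an EEvSH ratio under that of *Ttr*. At least 4-fold lower counts were found for 11 genes in EEvSH and 13 in ERvSH, and in each contrast *Ttr* was the 1 gene among them with an ordinary symbol, the others bearing clone or locus names. *Ttr* met the limit of 50 reads through SH alone, the library to which these ratios are taken. It was also chosen with measured values of these libraries known, so its place among these genes is no support for a difference. A filter set after the values were seen, at least 50 reads in SH and at most 10 in both other libraries, kept 3 genes. These were *Ttr* and the clone-named AC128901.1 (96, 5 and 0 reads) and AABR07050391.2 (188, 3 and 1 reads).

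The genes most like *Ttr* were taken as those nearest over the EEvSH and ERvSH log2 ratios, by Euclidean distance over the 2 contrasts and 3 libraries. Among 12258 genes with ordinary symbols and means of at least 50, the nearest 5 were *Cartpt*, *Chst3*, *Rbm25l1*, *Dnai1* and *Wisp1*, at distances of 5.95 to 6.18. These are large distances. All 5 had fewer reads in EE and in ER than in SH, as *Ttr* did, but their fold differences were far smaller. The mean of *Ttr* itself was 27.9, under the limit of 50, so genes at its level were left out of this search. The distances also depend on the pseudocount, since *Ttr* had 0 reads in ER. *Cartpt*, the precursor of the CART peptides, had 111, 53 and 47 reads and an ERvSH log2 ratio of −1.18, beside −6.33 for *Ttr*. *Rbm25l1* is a copy of *Rbm25*, and its assignment of reads is uncertain. Over 15201 genes with any symbol and a mean of at least 10, a setting added after the values were seen, AC128901.1 lay at a distance of 0.26 and AABR07050391.2 at 1.56. The neighbours of *Ttr* in the GRCr8 order did not share its pattern. *B4galt6*, a galactosyltransferase gene, had 4544 reads in SH, 4500 in EE and 4708 in ER, and *Dsg2*, a desmosomal cadherin gene, had 13, 13 and 9, and neither passed in any contrast.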

How the data were processed

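RNA was taken from BLA micropunches and pooled from 10 rats per condition, poly(A)-selected and prepared with a strand-keeping kit. Per the labels and the study's methods, the authors aligned the reads with HISAT2 and normalised with DESeq2. Versions, the genome build, the annotation and the counter were not given in the sources used here. Each deposited value is a normalised signal, the reads of a gene over its library's size factor. Dividing by the smallest step of each library recovered the reads, and 100% of values were whole within 0.001 read. Poly(A) selection misses most untailed RNA, and pooled RNA holds no measure of the spread between rats.

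Ratios carry no pseudocount and log2 ratios a pseudocount of 1. Intervals are exact, at 95%. No p-value was computed, since each condition has 1 library, and the count test could not be fitted without a residual degree of freedom. The size rule was 1.5-fold with an interval excluding 1. Named genes were all 10 markers, listed relatives, list genes past the rule with a mean of at least 10 (whatever their level for relatives), and the 5 genes nearest to *Ttr*. Genes and lists were chosen with earlier results of these data known. The neighbours, the motifs and the genes with clone names were chosen after values were seen. Alternatives were other scalings, pseudocounts, folds and filters. Some list genes withheld for evaluation are not reported here. The procedure was tested on simulated reads with counting error only. Changes of known size were placed only in genes with means of at least 50, above the level of every matched marker. Recovery of changes at the level of the markers was not tested. Python 3.11.15, numpy 2.4.6, pandas 2.3.3, scipy 1.17.1, matplotlib 3.10.9, R 4.3.3 and edgeR 4.0.16 (for TMM factors) were used.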

Additional observations from a re-analysis of the deposited data

How the results depend on the processing

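No paired analysis was possible because each condition has 1 pooled library, and for the same reason no library could be left out and the edgeR count test could not be fitted. Of 207 recomputed values 201 were scored as unchanged. A ratio was scored so when it stayed within the counting interval of the reported value. A list median was held against the interval of the gene nearest to it, which is wide for genes with few reads. A count of genes past the rule could differ by up to 1.5-fold and still be scored as unchanged. Scaling by library totals, edgeR TMM or the upper quartile moved the log2 ratios by no more than 0.0054 in size. With library totals *Slc4a5* passed as lower in ERvEE, so that 1 gene was lower there. With 1.5-fold alone and no interval, the genes counted as higher became 3 (EEvSH), 2 (ERvSH) and 1 (ERvEE). The count of lower genes became 3 in ERvSH and 4 in ERvEE. A pseudocount of 5 moved the log2 ratio of *Ttr* in ERvSH from −6.33 to −4.08, since it draws a gene at 0 reads toward 0. Without *Ttr*, an alternative chosen after seeing the data, the medians of the remaining 6 genes were 0.24, 0.41 and −0.48. *Ttr* was lower in EEvSH and in ERvSH under each scaling and under the 2-fold rule. Depth limits the other markers: from 9 reads in SH, *Prlr* needed at least 20 reads in EE to pass as higher or at most 1 to pass as lower.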
